A study of Mus musculus with 8 samples.

Results

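The genes described here are 33 members of the glycolytic pathway and of the cellular response to low oxygen, chosen by symbol and read in RNA sequencing of endothelial cells sorted from whole mouse embryos. All 33 were found among the 23337 genes of the authors' normalised read count table, and 32 had the mean of at least 10 normalised reads needed for a test. Pkm was found under its older symbol Pkm2. The members fall into 4 groups by role. The glucose transporter gene Slc2a3 and the upper glycolytic genes Hk1, Hk2, Gpi1, Pfkl, Pfkm, Pfkp, Pfkfb3 and Pfkfb4 form the first, and the lower glycolytic and lactate genes Aldoa, Tpi1, Gapdh, Pgk1, Pgam1, Eno1, Pkm, Ldha, Slc16a3 and Pdk1 the second. Hif1a, Epas1, Egln1 and Egln3 encode subunits of the hypoxia-inducible factors and their oxygen sensors, and Bnip3, Bnip3l, Ankrd37, Car9, Ndrg1, P4ha1, P4ha2, Kdm3a, Mxi1 and Adm are other genes known to be induced by low oxygen.

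Glycolysis splits glucose into pyruvate in the cytosol and, where pyruvate is reduced to lactate, yields ATP without oxygen. Endothelial cells draw much of their ATP from it, also when oxygen is present. In the oxygen response, prolyl hydroxylases of the Egln family mark the alpha subunits of the hypoxia-inducible factors for destruction, and when oxygen falls the stabilised factors bind DNA with a partner subunit and activate genes of glucose uptake, glycolysis, collagen modification, pH control and vessel growth.

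Both groups came from Cdh5-CreERT2(PAC);Rosa26fsTRAP mice at embryonic stage E15.5. Cdh5-CreERT2 is a recombinase that tamoxifen activates, expressed under an endothelial promoter, and Rosa26fsTRAP is a reporter allele that recombination switches on. The genotype field of the labels reads wild type for every sample. In the tamoxifen group the pregnant females received tamoxifen by gavage at E12.5, and in the other group they did not, so an effect of the drug and an effect of Cre activation cannot be told apart. The labels list 8 samples, 4 per group, and do not say whether these came from separate litters or embryos. The p-values thus speak only of the spread among these libraries, and that spread may be technical.

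The header of the table names 8 libraries over 9 columns of values. Wherever the names are placed, columns 3 to 5 belong to the group without tamoxifen and columns 7 to 9 to the tamoxifen group. These 6 libraries, 3 per group, make up the comparison, and are numbered in table order as no_tamoxifen_1, no_tamoxifen_2 and no_tamoxifen_3 and as tamoxifen_1, tamoxifen_2 and tamoxifen_3. Column 6 and column 10 are shown apart, since the group or the name of each depends on the placement.

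The 6 libraries held 12212472 to 19908404 reads in genes, of which 29.4% to 38.7% fell on the ribosomal RNA precursor Rn45s. Transcripts of other cells were present beside the endothelial ones. The 12 endothelial markers summed to 8489 to 21245 normalised reads and the 12 macrophage and leukocyte markers to 37066 to 59266. The endothelial cadherin gene Cdh5 read 1978 to 5201 and the macrophage receptor gene Csf1r 7464 to 12229. Levels of the members therefore cannot be assigned to endothelial cells, and in such bulk samples fewer cells of a type and less RNA per cell cannot be told apart.

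The 3 tamoxifen libraries were unlike each other in these markers. The 12 mesenchymal markers summed to 56435, 87200 and 4514 in the tamoxifen libraries, taken in order, and to 2032 to 4352 in the group without tamoxifen. The 12 cartilage markers summed to 19997, 16945 and 1011 in the tamoxifen libraries and to 773 to 1138 without tamoxifen. For all 12 endothelial markers the tamoxifen_3 value lay below the whole range of the other group, with a sum of 8489 against 12701 to 21041. Values without tamoxifen_3 are given below for the members whose difference depended on it. They rest on tamoxifen_1 and tamoxifen_2 alone, and their p-values do not speak for all 3 tamoxifen libraries.

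No member passed the test between groups at a Benjamini-Hochberg adjusted p of 0.05 in limma, while 0.0445% of the 13480 genes tested did, all of them higher with tamoxifen. Count tests on recovered reads called no member either, against 0.0371% of all genes in edgeR and 2.04% in DESeq2, where 1.83% were higher. Below an unadjusted limma p of 0.05 stood 3 members that were higher with tamoxifen, P4ha2, P4ha1 and Egln3, beside 4.89% of all genes, and 1 that was lower, Mxi1, beside 4.12%. In either direction these were 4 members, beside 9.01% of all genes. In edgeR and in DESeq2 the unadjusted counts were 3 higher and 0 lower. No share of all genes at that unadjusted p was taken in these tools, so these counts have no background beside them. The median difference over the 32 tested members was -0.07 on the log2(normalised reads + 1) scale, the scale of every difference below, and -0.02 over all genes tested. The members' differences ran from -0.29 for Mxi1 to 0.77 for P4ha2, with 11 above 0 and 21 below. For scale, the stress chaperone gene Hspa1b differed by 5.32 ± 0.23 (SE, n = 3 per group, adjusted p = 8.83e-05 in limma) in the same libraries.

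**Figure D1:**
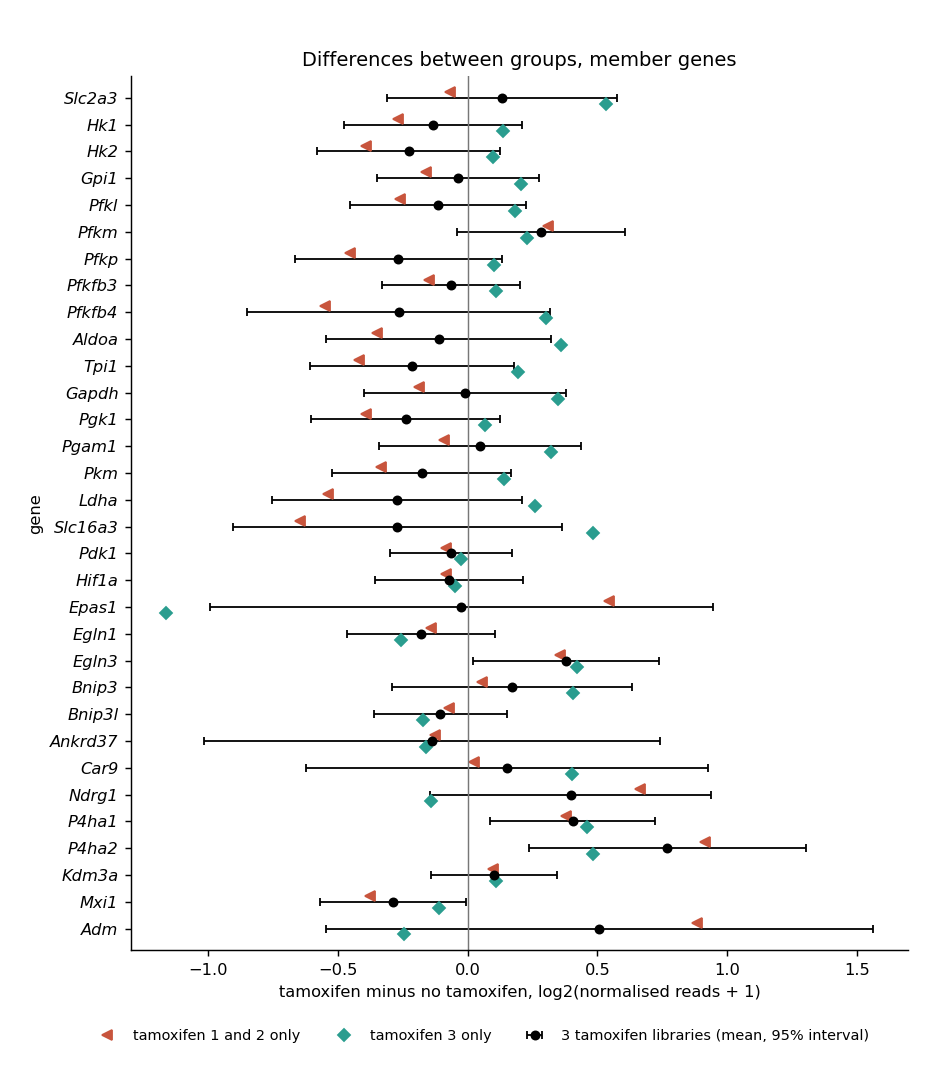
Difference between groups for the 32 tested members, in log2(normalised reads + 1), tamoxifen minus no tamoxifen. Black points are the difference over 3 libraries per group with its 95% confidence interval from limma; triangles use tamoxifen_1 and tamoxifen_2 only and diamonds tamoxifen_3 only, each against the same 3 libraries without tamoxifen. For the glycolytic genes from Hk1 to Slc16a3 other than Pfkm the triangles lie below 0 and the diamonds above it, for Epas1 they lie the other way round, and P4ha2, P4ha1 and Egln3 have both above 0.

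The groups did not overlap for 4 members, all higher with tamoxifen: P4ha2, P4ha1, Egln3 and Pfkm. Over all genes tested, 6.24% lay without overlap in that direction and 7.62% in the other, in which no member did.

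P4ha2 and P4ha1 encode catalytic subunits of the prolyl 4-hydroxylase of collagen, which lets collagen chains form a stable triple helix. P4ha2 (chromosome 11, 54100095 to 54131665, plus strand, GRCm38) read 125, 129 and 86.7 normalised reads without tamoxifen and 181, 246 and 156 with tamoxifen. Every tamoxifen library lay above every library without it, and the group means were 113 ± 23.2 and 195 ± 46.3 (SD, n = 3). The difference was 0.77 ± 0.23 (SE), 1.70-fold with a 95% confidence interval of 1.18 to 2.47, and its adjusted p in limma was 0.462. Behind it stood 114 to 259 reads per library, and the part of this depth in its spread was not tested.

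P4ha1 (chromosome 10, 59323296 to 59373304, plus strand) read 642, 842 and 610.3 without tamoxifen and 873, 923 and 950.4 with it. The spread within the tamoxifen group was small, 916 ± 39.3 against 698 ± 125, and the groups did not overlap. The difference was 0.40 ± 0.14, with a 95% interval of 0.09 to 0.72 and an adjusted p of 0.475 in limma.

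Both genes were also higher in tamoxifen_3 than in any library without tamoxifen. With tamoxifen_3 as the sole tamoxifen library, the difference was 0.48 for P4ha2 and 0.46 for P4ha1. In that library all 12 mesenchymal markers had differences above 0, with a median of 0.60 against 0.02 for all genes tested. Of the 12, 5 lay above every library without tamoxifen, beside 29.3% of all genes tested. P4ha2 was highest in tamoxifen_2, which also had the highest mesenchymal sum, and without tamoxifen_3 the difference of P4ha2 was 0.91 ± 0.23 (adjusted p = 0.0161 in limma). The part of the connective tissue transcripts in that value was not tested.

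Egln3, an oxygen sensor that is itself induced by low oxygen, is the third of these genes (chromosome 12, 54178981 to 54203860, minus strand). Its values were 286, 300.3 and 259 without tamoxifen and 427, 304 and 377 with tamoxifen. tamoxifen_2 lay only just above the highest library without tamoxifen. The difference was 0.38 ± 0.16, with a 95% interval of 0.02 to 0.74 and an adjusted p of 0.534 in limma.

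Mxi1 encodes a partner of Max that opposes Myc, and was the member furthest down. It read 725, 824 and 828 without tamoxifen and 589, 629.9 and 732 with it, so that tamoxifen_3 alone reached into the range of the group without tamoxifen. The difference was -0.29 ± 0.12, with a 95% interval of -0.57 to -0.01 and an adjusted p of 0.543 in limma. Without tamoxifen_3 it was -0.38 ± 0.13 and the adjusted p 0.0793.

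**Figure D2:**
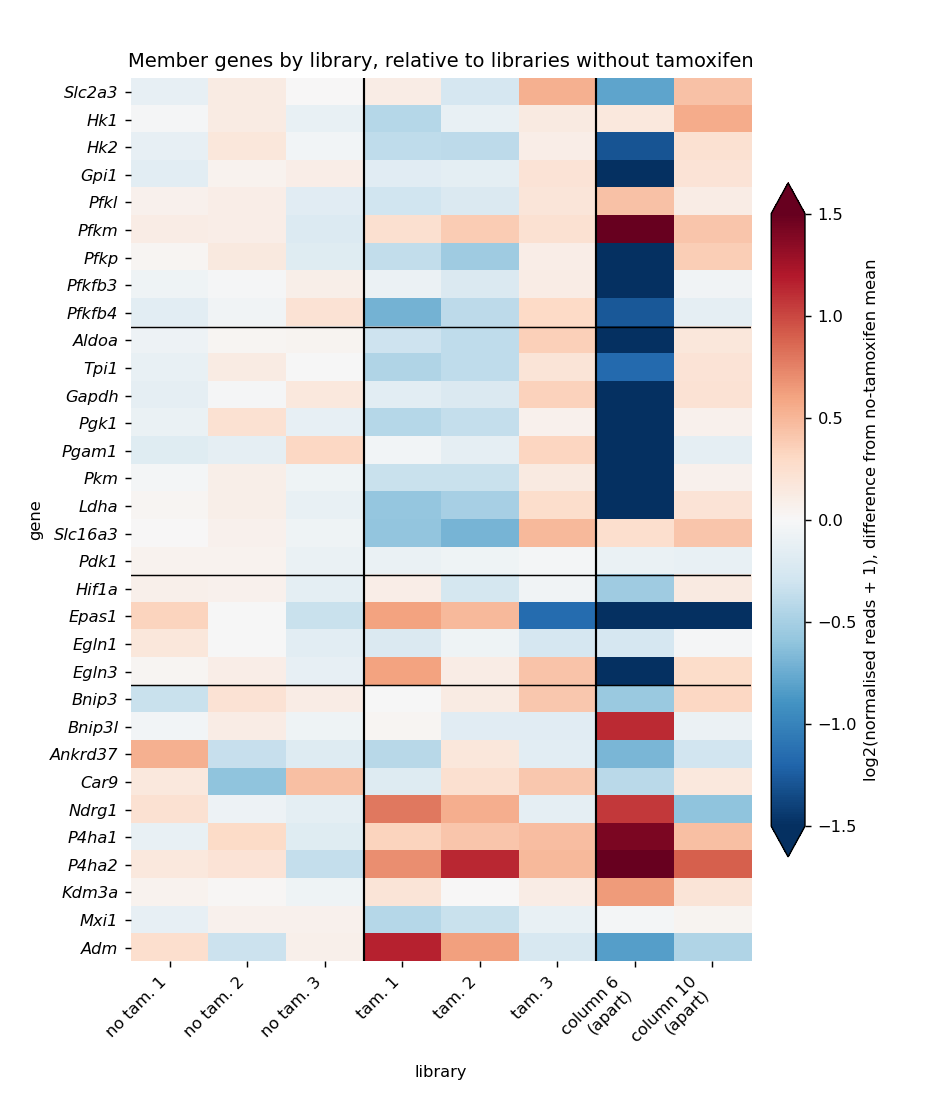
Each row is a member that was tested and each column a library; colour gives log2(normalised reads + 1) minus the mean of the 3 libraries without tamoxifen, with values beyond 1.5 drawn at the end of the scale. Horizontal lines part the 4 role groups. The lower glycolytic rows are mostly blue in tamoxifen_1 and tamoxifen_2 and mostly red in tamoxifen_3, and column 6 departs from all other columns.

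The 250 bases before the RefSeq start sites of the members were searched for the core letters of the hypoxia response element, the motif that the hypoxia-inducible factors bind. The letters searched were ACGTG and GCGTG, on both strands. The RefSeq promoter table, on GRCm38.p6, held 45 such windows for 29 of the 33 members; Slc2a3, Epas1, Bnip3l and Ndrg1 had none. ACGTG stood in 48.9% of the members' windows and in 16.6% of all 32851 windows, and GCGTG in 46.7% and 28.2%. At least 1 of the 2 stood in 77.8% of the members' windows against 38.6% of all. By gene, 27 of 29 members (93.1%) had a match in at least 1 window, against 41.5% of all genes in the table. The members' windows were also richer in G and C, with a median GC content of 61.6% against 52.4%, and the motifs hold 3 or 4 such bases of 5. A match is a stretch of letters and not a binding site, and the shares describe how often it occurs.

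The windows of 5 members are printed to show such matches in the genes that the values below turn on: Ldha and Pgk1 among the glycolytic genes, and the 3 members of lowest p that were higher with tamoxifen. Each runs 5′ to 3′ on the strand of its gene and ends at the base before the RefSeq start. Capitals mark ACGTG or GCGTG, or the reverse complement CACGT or CACGC. All 5 windows lie outside the exons of GENCODE M21. The Ldha and P4ha2 windows lie inside the annotated span of their gene, because the annotation also holds transcripts that start further upstream.
Ldha, chr7:46845554-46845803, plus strand: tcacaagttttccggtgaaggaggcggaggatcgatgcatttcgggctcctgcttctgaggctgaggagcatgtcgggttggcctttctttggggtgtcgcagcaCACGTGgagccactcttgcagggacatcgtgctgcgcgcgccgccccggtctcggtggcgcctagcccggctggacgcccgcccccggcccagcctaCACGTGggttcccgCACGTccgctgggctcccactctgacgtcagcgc
Pgk1, chrX:106186850-106187099, plus strand: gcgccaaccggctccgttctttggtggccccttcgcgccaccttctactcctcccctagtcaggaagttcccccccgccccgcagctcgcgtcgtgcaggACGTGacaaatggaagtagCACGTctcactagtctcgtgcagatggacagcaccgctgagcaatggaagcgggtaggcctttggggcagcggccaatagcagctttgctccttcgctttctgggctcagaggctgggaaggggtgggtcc
P4ha1, chr10:59323046-59323295, plus strand: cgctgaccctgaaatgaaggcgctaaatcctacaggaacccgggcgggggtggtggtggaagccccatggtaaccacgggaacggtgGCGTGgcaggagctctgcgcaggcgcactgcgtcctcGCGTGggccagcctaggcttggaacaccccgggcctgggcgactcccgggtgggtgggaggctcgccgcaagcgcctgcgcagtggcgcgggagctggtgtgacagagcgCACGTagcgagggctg
P4ha2, chr11:54100674-54100923, plus strand: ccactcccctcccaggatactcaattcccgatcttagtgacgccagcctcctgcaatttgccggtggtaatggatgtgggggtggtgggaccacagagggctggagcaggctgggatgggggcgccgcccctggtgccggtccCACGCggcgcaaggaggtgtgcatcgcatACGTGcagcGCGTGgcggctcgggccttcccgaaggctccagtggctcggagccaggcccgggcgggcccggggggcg
Egln3, chr12:54203875-54204124, minus strand: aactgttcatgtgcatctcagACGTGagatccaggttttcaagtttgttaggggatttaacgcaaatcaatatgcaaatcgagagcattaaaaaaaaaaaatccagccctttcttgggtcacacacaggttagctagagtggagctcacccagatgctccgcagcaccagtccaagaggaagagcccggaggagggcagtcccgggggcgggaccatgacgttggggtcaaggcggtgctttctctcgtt
Ldha held 5 matches, of which 2 pairs overlap in the palindrome CACGTG. That palindrome, also the letters of the E-box read by Myc and Max, stood in 11.1% of the members' windows and in 6.02% of all. Pgk1 held 2 matches, 131 and 150 bases before its start. P4ha1 and P4ha2 held 3 each, and Egln3 1 match, 229 bases before its start.

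All 9 upper glycolytic genes had enough reads to be tested. Their median difference was -0.11, with 2 members above 0 and 7 below, and none was called. Slc2a3 encodes a high-affinity glucose transporter and was the uptake gene among the members. It read 451, 536 and 497 without tamoxifen and 535, 413 and 715 with it, so that tamoxifen_2 was the lowest and tamoxifen_3 the highest of the 6 libraries. The difference was 0.13 ± 0.19. Its counterpart Slc2a1, the main glucose transporter of endothelium at the blood-brain barrier and of red cells, read 1361 to 1879 without tamoxifen and 1348 to 1585 with it, a difference of -0.16 ± 0.15 (adjusted p = 0.759 in limma).

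Hexokinases phosphorylate glucose and so hold it in the cell. Hk2, the form that low oxygen induces, read 1719.7, 2108 and 1816 without tamoxifen and 1435, 1424 and 2006 with it. tamoxifen_1 and tamoxifen_2 lay below every library without tamoxifen and tamoxifen_3 within their range. The difference was -0.23 ± 0.15 (adjusted p = 0.667 in limma). Hk1, the more widely expressed form, ranged from 1700.0 to 2004 without tamoxifen and from 1369 to 2021 with it. Gpi1, which converts glucose 6-phosphate to fructose 6-phosphate, ranged from 5855 to 7024 and from 5814 to 7548.

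Phosphofructokinase, which commits the sugar to glycolysis, is built from the products of Pfkl, Pfkm and Pfkp. Pfkp read 1020.4, 1104 and 880.4 without tamoxifen and 773, 688 and 1071 with it, again with tamoxifen_1 and tamoxifen_2 lowest. Its difference was -0.27 ± 0.17 (adjusted p = 0.655 in limma). Pfkm, the muscle form, went the other way: it read 273, 271 and 219.9 without tamoxifen and 300.2, 329.7 and 297 with it. The groups did not overlap, but the difference of 0.28 ± 0.14 had a 95% interval of -0.04 to 0.61 and an adjusted p of 0.58 in limma. Pfkl, the liver form, ranged from 1466 to 1772 and from 1339 to 1873. The exons of Pfkm and Pfkp lie in loci that overlap Senp1 and Pitrm1, and no source used here says whether counting used the strand, so a part of their reads may be from the neighbour.

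The bifunctional enzymes of the Pfkfb family make fructose 2,6-bisphosphate, the activator of phosphofructokinase. Pfkfb3, the form best known in sprouting endothelium, read 1044, 1076 and 1163 without tamoxifen and 1029, 942 and 1178 with it. Its difference was -0.06 ± 0.12, with a 95% interval of -0.33 to 0.20. Pfkfb4 ranged from 211 to 275 without tamoxifen and from 144 to 292 with it.

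The lower glycolytic genes held most of the reads of the members. Among the 9 tested, 1 lay above 0 and 8 below, with a median difference of -0.18, and none was called. Ldha, which reduces pyruvate to lactate, read 7793, 8179.9 and 7069 without tamoxifen. With tamoxifen it read 5133, 5429 and 9178. The tamoxifen group thus held the 2 lowest libraries and the highest, with means of 7681 ± 564 and 6579.8 ± 2255 (SD, n = 3). The difference was -0.27 ± 0.21, with a 95% interval of -0.75 to 0.21 and an adjusted p of 0.708 in limma.

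Slc16a3 encodes the transporter that exports lactate from glycolytic cells. It read 1006, 1049 and 962 without tamoxifen and 666, 619 and 1403 with it. As for Ldha, tamoxifen_1 and tamoxifen_2 lay below and tamoxifen_3 above every library without tamoxifen. The SD of the tamoxifen group was 440.1, against 43.6 in the other group. The difference over all 6 libraries was -0.27 ± 0.28.

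Tpi1, which interconverts the triose phosphates, read 3339, 3917 and 3576 without tamoxifen and 2640.2, 2759 and 4118 with it. Pgk1, the phosphoglycerate kinase that makes ATP, read 3646, 4589 and 3583 without tamoxifen and 2916, 3052 and 4102 with it. Pkm, which encodes pyruvate kinase and makes the last ATP of the pathway, read 12048, 13075 and 11747 without tamoxifen and 9723, 9745 and 13530.3 with it. In each of these 3 genes tamoxifen_1 and tamoxifen_2 were the lowest libraries, and the differences were -0.21 ± 0.17, -0.24 ± 0.16 and -0.18 ± 0.15. The Pkm row does not separate the splice forms of the gene.

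Aldoa, the aldolase of most tissues, ranged from 7110 to 7686 without tamoxifen and from 5731 to 9593 with it. Gapdh, often used as a reference gene, ranged from 11194 to 13749 and from 10558 to 15687. Its difference was -0.01 ± 0.17 under the deposited normalisation and 0.04 in edgeR, 0.02 in DESeq2 and under 0.01 when scaled to all reads but those of Rn45s, so its sign depended on the scaling. Pgam1, the phosphoglycerate mutase, ranged from 1212 to 1712 and from 1254 to 1719. Pdk1, the kinase that shuts off pyruvate dehydrogenase, ranged from 659 to 730.3 and from 657 to 694, with a difference of -0.06 ± 0.10 whose SE was the smallest among the tested members.

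Eno1 encodes the main enolase and was the member that could not be tested. It was listed at 0 in 5 of the 6 libraries, with 1 read in no_tamoxifen_3. A gene that every glycolysing cell uses is not read as absent from such values: the annotation also holds a retrogene copy, and how reads that fit both were counted is not given. Other glycolytic genes, Gapdh and Pgk1 among them, have processed pseudogenes, so their levels are uncertain to the extent that reads were shared or dropped. Aldoa, Tpi1 and Gapdh overlap Fam57b, Spsb2 and Iffo1.

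**Figure D3:**
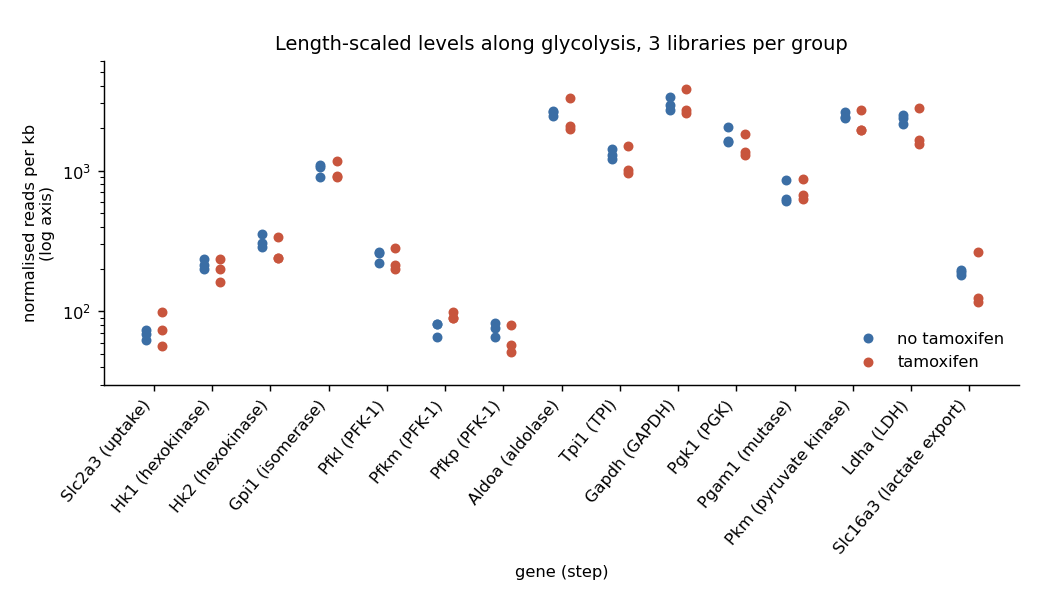
Normalised reads per kilobase of merged exons, on a log axis, for 15 genes in the order of the pathway, from glucose uptake to lactate export. Each point is a library, blue without and red with tamoxifen. Levels are higher from Aldoa to Ldha than at the uptake, hexokinase and phosphofructokinase steps, least so for Pgam1. In most lower glycolytic genes 1 red point lies above the blue ones and 2 lie below.

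Levels of different genes can be compared only per length. Per kilobase of merged exons, the mean without tamoxifen was highest for Gapdh, at 2991 normalised reads per kilobase, followed by Aldoa at 2568, Pkm at 2458 and Ldha at 2320.4. The ranges of these 4 over the 6 libraries overlapped. Pgk1 at 1755, Tpi1 at 1311, Gpi1 at 1017 and Pgam1 at 703 came next, and the lowest value of Gpi1, 901, lay above the highest of Pgam1, 867. The enzymes of the early steps were lower, with Hk2 at 315, Pfkl at 248 and Hk1 at 216. Hif1a, at 220.3, and Epas1, at 199, stood near Hk1. The highest value of Hif1a, 235, lay below the lowest of Hk2, 239. The lowest tested members were P4ha2 at 18.2, Ankrd37 at 15.9 and Adm at 9.49. Several genes have transcripts of different length, so these levels are approximate.

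The order of the tamoxifen libraries was shared by most glycolytic genes. In 13 of the 32 tested members, tamoxifen_1 and tamoxifen_2 both lay below the other 4 libraries, beside 19.3% of all genes tested. Of these 13, 5 were among the 9 upper and 7 among the 9 lower glycolytic genes, and the other was Mxi1. In the opposite order, tamoxifen_1 and tamoxifen_2 both lay above the other 4 libraries for 5 members, beside 15.6% of all genes. tamoxifen_3 lay above every library without tamoxifen for 19 members, beside 29.3% of all genes, and below every one for 3, beside 26.7%. Summed over the glycolytic members, reads made up 0.690%, 0.751% and 0.733% of the reads outside Rn45s without tamoxifen and 0.599%, 0.601% and 0.827% with it. The share in the tamoxifen group thus lay on both sides of the other group.

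**Figure D4:**
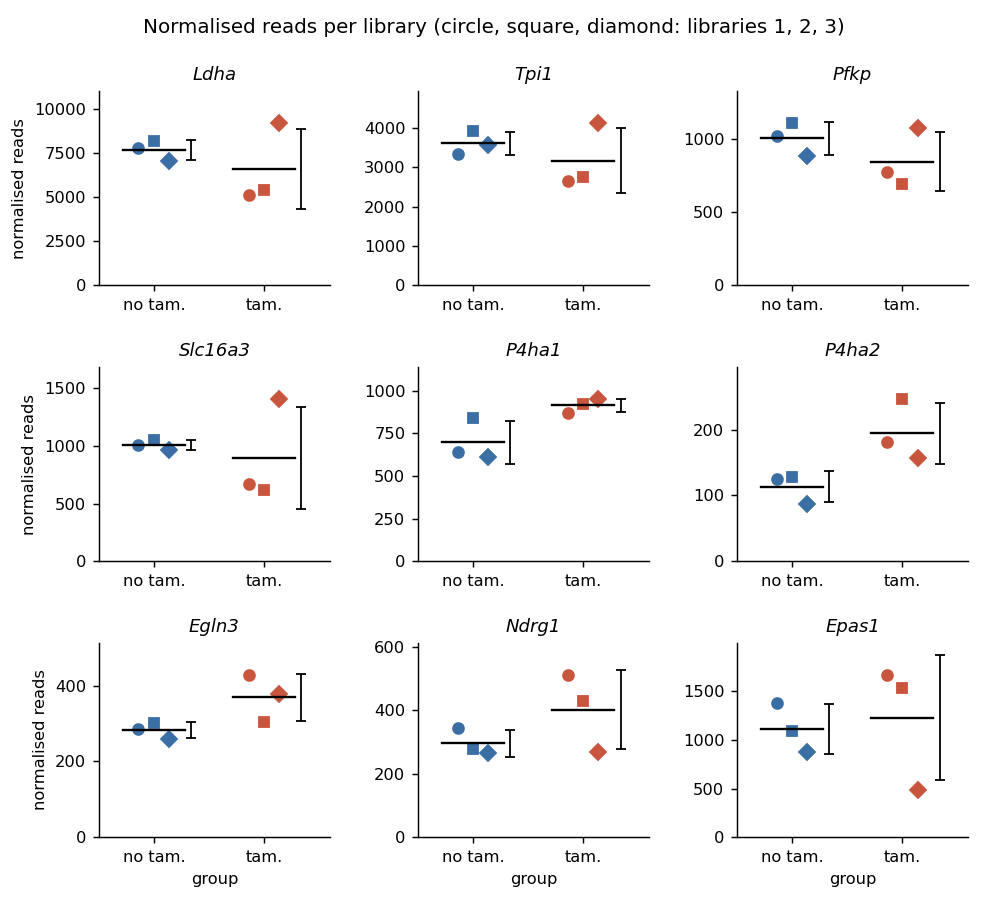
Normalised reads of 9 members in each of the 6 libraries, with the mean (line) and SD (bar) of each group, n = 3; circle, square and diamond are libraries 1, 2 and 3 in table order. Ldha, Tpi1, Pfkp and Slc16a3 have 2 tamoxifen libraries below and 1 at or above the libraries without tamoxifen, Epas1 and Ndrg1 have 2 above and 1 at or below, and P4ha1, P4ha2 and Egln3 have all 3 above.

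Leaving out tamoxifen_3 changed the calls. This fit held tamoxifen_1 and tamoxifen_2 alone against the 3 libraries without tamoxifen. Each library was left out in turn, and this fit is given because it changed the calls most. Where tamoxifen_3 disagreed with the other tamoxifen libraries, leaving it out narrows the spread. The adjusted p-values of this fit thus cannot speak for all 3 tamoxifen libraries. Without tamoxifen_3, limma called 4 of the members lower and 3 higher with tamoxifen, beside 3.48% and 7.22% of all genes. Slc16a3 fell by 0.65 ± 0.12 (adjusted p = 0.00249), Ldha by 0.54 ± 0.12 (adjusted p = 0.00756), Tpi1 by 0.42 ± 0.12 (adjusted p = 0.0306) and Pfkp by 0.45 ± 0.13 (adjusted p = 0.0417). Ndrg1 rose by 0.66 ± 0.16 (adjusted p = 0.0149), P4ha2 by 0.91 ± 0.23 (adjusted p = 0.0161) and Epas1 by 0.54 ± 0.16 (adjusted p = 0.0379). No other member was called, though more of them moved. Without tamoxifen_3 the difference of Hk2 was -0.39 ± 0.12 (adjusted p = 0.0533 in limma), that of Pgk1 -0.39, of Pkm -0.33, of Aldoa -0.35 and of Pfkfb4 -0.55. Hk1 at -0.27, Pfkl at -0.26, Gapdh at -0.19, Gpi1 at -0.16 and Pfkfb3 at -0.15 were also further below 0 than over all 6 libraries, and Slc2a3 and Pgam1, above 0 over all 6, stood at -0.07 and -0.09. Adm stood at 0.88 ± 0.43 (adjusted p = 0.223 in limma), against 0.51 over all 6, while Bnip3 and Car9 came closer to 0, at 0.05 and 0.03. All 9 tested lower glycolytic genes then lay below 0, with a median of -0.35, and 8 of the 9 upper ones, with a median of -0.26, while the median of all genes was -0.04. With tamoxifen_3 as the sole tamoxifen library, assumed to vary as the others do, 8 of 9 lower and 9 of 9 upper glycolytic genes lay above 0, and no glycolytic member was called.

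Macrophage and leukocyte, mesenchymal and cartilage markers also set tamoxifen_1 and tamoxifen_2 apart from tamoxifen_3. Of the 12 macrophage and leukocyte markers, 11 were lower in tamoxifen_1 and tamoxifen_2 than in the other 4 libraries and 8 were highest in tamoxifen_3. They summed to 48342 to 56016 without tamoxifen and to 39296, 37066 and 59266 in the tamoxifen libraries, taken in order. The mesenchymal and cartilage sums given above were highest in tamoxifen_1 and tamoxifen_2. The 7 neutrophil markers summed to 43001 to 75038 without tamoxifen and to 49606 to 63354 with it. Only 2 of these 7 were lower in tamoxifen_1 and tamoxifen_2 than in the other 4 libraries. No marker of these 5 lists, the endothelial one included, was at 0 in all 6 libraries. The part of these cells in the glycolytic values was not tested. The 16 heat shock and dissociation genes summed to 78520 to 85546 normalised reads in the group without tamoxifen and to 251411, 192074 and 185042 in the tamoxifen libraries. The groups did not overlap for 11 of them, all higher with tamoxifen, and for 8 tamoxifen_1 and tamoxifen_2 lay above the other 4 libraries.

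Among the genes of the oxygen response itself, the 4 factor and sensor genes had a median difference of -0.05, and none was called. Hif1a, the subunit found in most cells, read 1368, 1355 and 1173 without tamoxifen and 1385, 1079 and 1252 with it. The groups overlapped and the difference was -0.07 ± 0.12, with a 95% interval of -0.36 to 0.21. These are transcript levels, and the factor is controlled mainly through the stability of its protein.

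Epas1 encodes the second alpha subunit, which is abundant in endothelium. It read 1380.5, 1092 and 871 without tamoxifen and 1665, 1532 and 489.6 with it. tamoxifen_1 and tamoxifen_2 were the highest of the 6 libraries and tamoxifen_3 the lowest. The difference over all libraries was -0.02 ± 0.42, the largest SE of any tested member but Adm, with a 95% interval of -0.99 to 0.95, and its sign differed in edgeR, at 0.19, and DESeq2, at 0.17. With tamoxifen_3 as the sole tamoxifen library it was -1.16 ± 0.22 (adjusted p = 0.0405 in limma), where 0.675% of all genes were called (0.467% lower), and without that library it was 0.54, as given above. The endothelial markers summed to 21041, 18420 and 12701 normalised reads in the group without tamoxifen and to 20469, 21245 and 8489 in the tamoxifen libraries. Its part in the Epas1 values was not tested.

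Egln1, the main oxygen sensor, read 711, 629 and 568 without tamoxifen and 546, 604 and 529.5 with it. The groups overlapped, with a difference of -0.18 ± 0.12 (adjusted p = 0.675 in limma). In the group without tamoxifen the log2 ratio of Egln3 to Egln1 was -1.31, -1.06 and -1.13, and in the tamoxifen group -0.35, -0.99 and -0.49, so that the groups did not overlap. Its difference of 0.56 had the smallest p that an exact two-sided permutation test of 3 against 3 libraries can give, 0.1, and an adjusted p of 0.267 over the 8 ratios computed.

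The other 7 ratios compared related members in the same way. Pfkm to Pfkl differed by 0.40 and Pfkp to Pfkl by -0.15, both also at the smallest possible p of 0.1 in the exact permutation test. P4ha2 to P4ha1 differed by 0.36, Bnip3 to Bnip3l by 0.28, Pfkfb3 to Pfkfb4 by 0.20, Hk2 to Hk1 by -0.09 and Epas1 to Hif1a by 0.05, with groups that overlapped. A ratio within a library shows unequal change and not which of its members changed.

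The 10 other hypoxia-inducible genes had a median difference of 0.16, with 7 above 0 and 3 below. None was called. Bnip3 and Bnip3l encode receptors that direct mitochondria to autophagy. Bnip3 read 119, 174 and 162 without tamoxifen and 149, 162 and 198 with it, a difference of 0.17 ± 0.20. Bnip3l ranged from 664 to 751 without tamoxifen and from 618 to 708 with it.

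Ndrg1, a stress-responsive gene that low oxygen induces, read 345, 279 and 266 without tamoxifen and 510.2, 428 and 267 with it. Here tamoxifen_1 and tamoxifen_2 were highest and tamoxifen_3 lay within the range of the group without tamoxifen, the reverse of the glycolytic genes. The difference over all libraries was 0.40 ± 0.24 (adjusted p = 0.63 in limma). Kdm3a, a histone demethylase, read 704, 683 and 645 without tamoxifen and 773, 677 and 730.1 with it, and its 95% interval of -0.14 to 0.34 included 0.

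Car9, the carbonic anhydrase of the cell surface that acidifies the surroundings of hypoxic cells, was near the low end of what these libraries can measure. It read 48.6, 28.1 and 59.4 without tamoxifen and 37.9, 51.3 and 57.5 with it, from 26 to 82 reads per library. Adm, which encodes the vessel-active peptide adrenomedullin, read 18.2, 11.9 and 16.0 without tamoxifen and 34.8, 23.8 and 12.6 with it. Only 11 to 34 reads stood behind each value, and the 95% interval of its difference ran from -0.54 to 1.56. Ankrd37 ranged from 18.4 to 34.7 and from 17.4 to 26.6, and shares its locus with Ufsp2 and Lrp2bp. The 95% intervals of the Car9 and Ankrd37 differences were narrower, -0.62 to 0.92 and -1.02 to 0.74. They still included sizeable differences in both directions. Moderate changes of these 3 genes could therefore not be told from no change. The part of read depth in these widths was not tested.

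The rest of the pathways were read from 5 lists, whose counts stand beside the shares over all genes tested: 4.89% higher and 4.12% lower below an unadjusted limma p of 0.05, and 7.22% called higher and 3.48% lower without tamoxifen_3. Of 20 tested genes for other glycolytic enzymes and for glucose and lactate carriers, limma called none, 0 had an unadjusted p under 0.05 on the higher side and 1 on the lower. That gene was Slc16a7, a monocarboxylate transporter, which read 259, 220.4 and 157 without tamoxifen and 109.6, 93.1 and 136 with it. Its groups did not overlap, and the difference was -0.89 ± 0.23 (adjusted p = 0.46 in limma); DESeq2 called it, with an adjusted p of 0.0481, and edgeR called no gene of the list. Eno3, the muscle enolase, had the lowest p on the higher side, with 34.7 to 38.9 against 41.8 to 65.9. Without tamoxifen_3, limma called 2 genes of the list lower, Slc16a7 and the leukocyte hexokinase gene Hk3, and none higher.

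Of 16 tested genes for the partners and the degradation of the hypoxia-inducible factors, limma, edgeR and DESeq2 called none. In limma 0 genes were higher and 1 was lower below an unadjusted p of 0.05. Tceb1, which encodes elongin C of the ubiquitin ligase that removes the factors, read 341, 348 and 259 without tamoxifen and 170.1, 220.4 and 246 with it, a difference of -0.58 ± 0.19 (adjusted p = 0.475 in limma). Siah2, a ubiquitin ligase that acts on the sensors, had the lowest p on the higher side, at 236 to 311 against 286 to 429.9. Without tamoxifen_3, limma called Tceb1 lower and Hif3a, another alpha subunit, higher.

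Of 33 further hypoxia-inducible genes, limma called none; below an unadjusted p of 0.05 it placed 7 on the higher and 1 on the lower side, beside 4.89% and 4.12% of all genes. DESeq2 called 4 higher, beside 1.83% of all genes, among them Lox, Plod2 and P4ha3, and edgeR none. Vegfa, the chief growth factor of vessels, read 473, 439 and 508 without tamoxifen and 552, 709 and 577 with it, a difference of 0.37 ± 0.13 (adjusted p = 0.492 in limma). Bhlhe40, a circadian and hypoxic repressor, was lower in all 3, at 419.9 to 456 against 322 to 373. Without tamoxifen_3, limma called 7 genes of the list higher and 1 lower, beside 7.22% and 3.48% of all genes.

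Lox and Plod2, which cross-link and hydroxylate collagen, were chosen for mention after their values were seen, because DESeq2 called them. Lox read 19.0 to 46.0 without tamoxifen and 462, 619 and 44.9 with it. Plod2 read 35.8 to 74.6 without tamoxifen and 245, 273 and 73.6 with it. Their tamoxifen_3 values lay within the range of the group without tamoxifen, unlike those of P4ha1 and P4ha2, and the mesenchymal markers were high in the same libraries, tamoxifen_1 and tamoxifen_2. The part of connective tissue transcripts in them was not tested.

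Pyruvate dehydrogenase links glycolysis to the mitochondria. Of the 12 tested genes for its subunits, regulators and the pyruvate carriers, limma, edgeR and DESeq2 called none, and limma placed 0 on the higher and 1 on the lower side below an unadjusted p of 0.05. Pdk4, a kinase of the complex, read 18.2, 22.7 and 10.7 without tamoxifen and 60.4, 50.4 and 14.7 with it, and Dld, its shared subunit, 719.9 to 1089 against 643 to 774. Of 7 genes of the pentose phosphate branch none was called by any of the 3 tools, with the same unadjusted counts in limma, 0 and 1. Pgd, which makes NADPH in that branch, read 3140.1 to 3916 without tamoxifen and 2289 to 3506 with it, and Pgls 418 to 749.5 against 603 to 699. Without tamoxifen_3, limma called Pdk4 higher and Pgd lower and no other gene of these 2 lists.

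Columns 6 and 10 were set beside these values without entering the comparison. Column 10 held 22593195 reads in genes and was near tamoxifen_3 in several glycolytic values: the glycolytic members took 0.807% of its reads outside Rn45s against 0.827%, Ldha read 8805 against 9178 and Slc16a3 1344 against 1403. Epas1 differed more, at 261 against 489.6, and lay below all 6 libraries. Column 6 held 8695745 reads, 45.7% of them Rn45s. In it the glycolytic members took 0.253%, and 14 of the 32 tested members stood more than 2-fold below every library without tamoxifen, beside 21.5% of all genes. In the other direction, 4 members stood more than 2-fold above every library without tamoxifen, Pfkm, Bnip3l, P4ha1 and P4ha2, beside 18.0% of all genes. Gapdh read 3167, Aldoa 1568, Pkm 3786 and Gpi1 1284 there. Slc2a1, by contrast, read 11713. The mesenchymal markers summed to 451659 and the erythroid ones to 142705 in that column, while the macrophage and leukocyte markers summed to 881 and Csf1r read 151.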

How the data were processed

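RNA was sequenced from endothelial cells sorted by flow cytometry, after ribosomal RNA depletion. The deposited values are a signal unit, the authors' normalised read counts per gene symbol; per the submitters' processing notes STAR, HTSeq 0.11.2 and DESeq2 were used and the builds hg38 and mm10 are listed, with no roles given. In every column used, 100% of the values were whole multiples of 1 step within 0.001 reads, so whole reads were recovered for depth and for the count tests, which called 5 genes (edgeR) and 275 genes (DESeq2) of 13480.

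Of the 9 value columns, 1 was not used, since its group depends on where the short header is placed; columns 6 and 10 entered alternatives only. The fit was therefore 3 libraries against 3. Genes averaging 10 normalised reads or more were tested with limma 3.58.1 (R 4.3.3) on log2(value + 1), with a mean-variance trend and Benjamini-Hochberg adjustment over all genes at 0.05. This scale understates changes of low genes. Alternatives used edgeR 4.0.16 (quasi-likelihood, TMM) and DESeq2 1.42.0, other filters and scalings, and left out libraries. The tests were run on simulated counts, with changes larger than any member's and alike in the 3 tamoxifen libraries. Those runs thus do not speak for changes of the members' size or for tamoxifen libraries that disagree. Ratios of related members were log2 values set against each other in an exact permutation test, two-sided.

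The members and lists were chosen with earlier results of these data known. All members are named; every library is printed for the 8 of lowest p in each direction and for 11 fixed genes, with Slc16a3 added after its values were seen. Each pathway list gives its gene of lowest p per direction. Coordinates and exon lengths are from GENCODE M21 on GRCm38, the assembly also called mm10, and promoter sequences from RefSeq on GRCm38.p6. A comparison of protein sequences was not made. A gene of the further hypoxia-inducible list is counted but not reported here by name.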

Additional observations from a re-analysis of the deposited data

Results flagged for a closer look

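Column 6, which entered alternatives only, held 4 members at more than 2-fold above every library without tamoxifen, beside 18.0% of all genes tested. P4ha2 read 1300 normalised reads there against 86.7 to 129 without tamoxifen, and P4ha1 1839 against 610.3 to 842. Pfkm read 789 against 219.9 to 273, and Bnip3l, a mitophagy receptor gene, 1514 against 664 to 751. The mesenchymal markers summed to 451659 in that column against 2032 to 4352, and the erythroid markers to 142705 against 198 to 364. Their part in these values was not tested.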

How the results depend on the processing

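Values are log2 differences unless they are counts of genes. With the names over the first 8, column 6 joined the tamoxifen group. The unused column, which that placement puts in the group without tamoxifen, was left out, so that placement was tried only in part. With the names over the last 8, column 6 joined the group without tamoxifen and column 10 the tamoxifen group. Over 16 alternative settings no member was called except without tamoxifen_3 and without tamoxifen_1 and tamoxifen_2. Genes called among all tested, 6 higher and 0 lower, became 247 and 28 in DESeq2, 20 and 1 with the replicate block, 0 higher with the names over the first 8 columns and 28 and 63 without tamoxifen_1 and tamoxifen_2; leaving out 1 library gave 2 to 973 and 0 to 469. Members at an unadjusted p under 0.05 became 0 lower in edgeR and DESeq2 and 0 in both directions with the names over the first or the last 8. No share of all genes was taken for these counts. Leaving out 1 library gave 0 to 3 members called higher and 0 to 4 lower, 1 to 4 and 0 to 10 at an unadjusted p under 0.05, and 4 to 7 and 0 to 13 without overlap; the highest of each of these counts came without tamoxifen_3. Over all genes tested, leaving out 1 library gave shares of 2.59% to 12.6% higher and 1.36% to 11.6% lower at an unadjusted p under 0.05, and 8.43% to 18.6% higher and 10.2% to 22.7% lower without overlap, again highest without tamoxifen_3. In edgeR, Gpi1 was 0.00039, Gapdh 0.039 and Epas1 0.19; in DESeq2, Gapdh was 0.019 and Epas1 0.17; scaled to all reads but those of Rn45s, Gapdh was 0.00060 and 1 member lay lower without overlap.

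With the names over the first 8, signs turned for Slc2a3 (-0.10), Pfkl (0.025), Pgam1 (-0.37), Egln3 (-0.13), Bnip3 (-0.010), Bnip3l (0.20), Pgls (-0.41) and Slc2a1 (0.58), and for the ratios of Bnip3 to Bnip3l (-0.21) and Epas1 to Hif1a (-0.30). With the names over the last 8, the members' median was 0.15 and 1 member was higher without overlap; signs turned for Hk1 (0.00097), Hk2 (0.21), Gpi1 (0.61), Pfkm (-0.093), Pfkp (0.35), Pfkfb3 (0.39), Pfkfb4 (0.084), Aldoa (0.52), Tpi1 (0.18), Gapdh (0.54), Pgk1 (0.28), Pkm (0.31), Ldha (0.24), Hif1a (0.11), Ndrg1 (-0.12), P4ha2 (-0.081), Kdm3a (-0.037) and Pgd (0.42), and for the ratios of Hk2 to Hk1 (0.21), Pfkp to Pfkl (0.52), P4ha2 to P4ha1 (-0.14) and Epas1 to Hif1a (-0.18). Without tamoxifen_1 and tamoxifen_2, 1 member (Epas1) was called lower, 19 were higher and 3 lower without overlap, and the members' median was 0.16; signs turned for Hk1 (0.14), Hk2 (0.10), Gpi1 (0.21), Pfkl (0.18), Pfkp (0.10), Pfkfb3 (0.11), Pfkfb4 (0.30), Aldoa (0.36), Tpi1 (0.19), Gapdh (0.35), Pgk1 (0.068), Pkm (0.14), Ldha (0.26), Slc16a3 (0.48), Ndrg1 (-0.14), Adm (-0.24) and Pdk4 (-0.15), and for the ratios of Pfkfb3 to Pfkfb4 (-0.19) and Epas1 to Hif1a (-1.11). The causes were not tested. No share of all genes without overlap was taken for the names over the last 8 or for the scaling without Rn45s. The members counted without overlap there thus have no background share beside them.

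Leaving out 1 library turned signs, with these ranges: Slc2a3 -0.070 to 0.32, Hk1 -0.27 to 0.013, Gpi1 -0.16 to 0.028, Pfkfb3 -0.15 to 0.010, Aldoa -0.35 to 0.024, Gapdh -0.19 to 0.10, Pgam1 -0.089 to 0.21, Hif1a -0.16 to 0.023, Epas1 -0.34 to 0.54, Ankrd37 -0.31 to 0.13, Car9 -0.15 to 0.37, and the ratios of Hk2 to Hk1 -0.16 to 0.00065, Pfkfb3 to Pfkfb4 -0.0068 to 0.40 and Epas1 to Hif1a -0.30 to 0.63. Among the tested members, P4ha1 on the higher side and Mxi1, Egln1 and Pdk1 on the lower side kept their direction in every setting. P4ha2 kept it in all but the names over the last 8.

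Over the named genes and ratios, 690 values under an alternative kept their direction and, for genes, their side of the threshold, and 81 turned in sign. Another 15 kept their direction but were called only under the alternative. The remaining 1 kept its direction but was called only in the comparison of the 6 libraries. Same-numbered libraries correlated at 0.195, 0.036 and 0.345 in their deviations from the group means, and not every library correlated best with its own number, so the numbers were not read as pairs. The replicate block called no member. Adm, Ankrd37 and Car9 had the fewest reads of the tested members.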
